A study of Homo sapiens with 6 samples.

Results

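Of the 23653 BORIS peaks mapped in FT282 cells that express BORIS, 203 (0.858%) overlapped a CTCF peak of the empty-vector cells and no CTCF peak of the BORIS cells. These places are called EV-only peaks below. They were chosen by the authors' peak calls, with an overlap of 1 bp or more counted as shared, so their CTCF calls in both populations and the scores behind those calls are given as a description without a test. FT282 is an immortalised secretory epithelial line of the human fallopian tube, and the labels describe the cells as 1 clonal derivative. The cells stably carried either the empty vector (EV cells) or BORIS (BORIS cells). CTCF was precipitated in both populations and BORIS in the BORIS cells, each with a custom mouse monoclonal antibody, and RNA was sequenced from both populations. Each group held 1 library, and the values therefore carry no replicate error. A difference between the populations describes these libraries and their 1 clone, and intervals cover counting error alone, since neighbouring peaks of 1 library are not replicates.

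CTCF is a zinc finger protein that binds a long, conserved DNA motif and halts cohesin as it extrudes chromatin loops, which sets loop anchors and insulator boundaries. BORIS, the product of CTCFL, is its paralog of the male germ line. It has nearly the same zinc finger region with different flanking domains, and it is expressed in some tumours, ovarian cancers among them. Since both proteins can read the same motif, a site can be bound by CTCF, by BORIS or by both, and sites at gene promoters are frequent among those of BORIS.

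CTCFL stood at 0.00532 FPKM with the empty vector and 53.3 FPKM with BORIS, the direction the labels give, and CTCF at 21.1 and 20.8 FPKM. FPKM is a read count scaled to transcript length and library size. Of 10 secretory cell markers 7 reached 1 FPKM, with summed levels of 1779 and 1525 FPKM. The secretory lineage factor PAX8 stood at 71.3 and 72.5 FPKM, whereas OVGP1 was near 0 at 0.0951 and 0.120 FPKM. MUC1 stood at 1.45 and 0.850 FPKM and carried a mark as lower in the authors' deposited table. WFDC2, at 1.28 and 0.661 FPKM, carried no mark, and EPCAM was below 1 FPKM in both. No secretory marker was marked as higher. Of 6 ciliated cell markers 5 were found, with sums of 447 and 397 FPKM, of which the tubulin gene TUBB4B, which many cell types express, made up 445 and 396, and the ciliated cell factor FOXJ1 was listed at 0 in both. The 6 fibroblast genes summed to 127 and 99.1 FPKM, and COL1A1 and PDGFRB among them carried a mark as lower in the authors' deposited table. The 4 endothelial genes summed to 36.6 and 31.5 FPKM, of which CDH5 made up 35.2 and 30.2. The 6 leukocyte genes summed to 3.78 and 4.52 FPKM with CD3E at 0. Among them CD68, at 1.48 and 2.26 FPKM, carried a mark as higher in the authors' deposited table. The 5 smooth muscle genes summed to 728 and 309 FPKM, of which ACTA2 made up 697 and 292, with DES and MYH11 below 1 FPKM. ACTA2, CNN1 and LMOD1 carried a mark as lower in the authors' deposited table. The part of these marker differences in the RNA results below was not tested.

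The promoters of 6 genes show the DNA at gene starts where an EV-only peak sat, and they were printed because each gene is named below and the promoter holds the BORIS position of its peak. Each run gives 250 bases before and 50 bases after the start in RefSeq on GRCh38.p14, 5′ to 3′ on the gene's strand. The peaks themselves were mapped on hg19 and were joined to these promoters by gene symbol, not by coordinates. At each of the 6 the run lies at the outermost RefSeq start of the gene, and the gene span of the expression table was within 50 bp of the RefSeq length. Capitals mark matches, on either strand, to GGGCGG (a GC box), CCGGAAG (an ETS-family core), GCGCATG (an NRF1 core), CCAAT (the box of that name), CACGTG (an E-box), TGACGTCA (a CREB site), TGANTCA (an AP-1 site), TATAAA (a core promoter box), AAGATGG (a YY1 core) and the CTCF core motif. The sequences lie at chr19:19320579-19320878 (plus strand), chr9:19102855-19103154 (minus strand), chr3:72446574-72446873 (minus strand), chr2:98608463-98608762 (minus strand), chr12:12357018-12357317 (minus strand) and chr22:39319574-39319873 (minus strand).
MAU2: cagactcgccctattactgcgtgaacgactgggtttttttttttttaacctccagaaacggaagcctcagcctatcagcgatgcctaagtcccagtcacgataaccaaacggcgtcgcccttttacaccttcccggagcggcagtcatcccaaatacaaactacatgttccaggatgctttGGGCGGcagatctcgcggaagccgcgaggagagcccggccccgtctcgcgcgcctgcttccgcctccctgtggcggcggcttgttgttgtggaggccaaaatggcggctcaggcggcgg
HAUS6: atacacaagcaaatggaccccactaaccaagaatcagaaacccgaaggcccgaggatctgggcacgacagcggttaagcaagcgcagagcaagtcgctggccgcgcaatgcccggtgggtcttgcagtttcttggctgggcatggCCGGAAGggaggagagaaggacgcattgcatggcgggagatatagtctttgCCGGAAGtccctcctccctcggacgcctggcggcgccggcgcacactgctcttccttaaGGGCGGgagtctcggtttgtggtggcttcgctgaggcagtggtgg
RYBP: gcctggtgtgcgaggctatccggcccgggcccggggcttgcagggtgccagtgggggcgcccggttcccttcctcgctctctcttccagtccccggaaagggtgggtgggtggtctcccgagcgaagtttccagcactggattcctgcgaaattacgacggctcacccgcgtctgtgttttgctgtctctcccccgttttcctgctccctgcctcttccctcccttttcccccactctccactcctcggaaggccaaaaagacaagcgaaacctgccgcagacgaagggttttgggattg
COA5: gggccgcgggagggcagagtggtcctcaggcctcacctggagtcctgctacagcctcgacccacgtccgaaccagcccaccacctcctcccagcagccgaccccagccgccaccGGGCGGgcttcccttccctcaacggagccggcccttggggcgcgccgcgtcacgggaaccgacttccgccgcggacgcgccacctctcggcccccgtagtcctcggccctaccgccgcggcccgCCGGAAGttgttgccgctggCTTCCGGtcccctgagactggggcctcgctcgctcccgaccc
LOH12CR2: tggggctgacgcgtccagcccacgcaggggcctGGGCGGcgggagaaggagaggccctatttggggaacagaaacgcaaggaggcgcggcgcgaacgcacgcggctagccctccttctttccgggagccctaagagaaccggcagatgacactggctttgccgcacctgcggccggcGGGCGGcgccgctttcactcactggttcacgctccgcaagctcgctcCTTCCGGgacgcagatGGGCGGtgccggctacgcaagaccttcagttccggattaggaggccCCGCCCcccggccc
RPL3: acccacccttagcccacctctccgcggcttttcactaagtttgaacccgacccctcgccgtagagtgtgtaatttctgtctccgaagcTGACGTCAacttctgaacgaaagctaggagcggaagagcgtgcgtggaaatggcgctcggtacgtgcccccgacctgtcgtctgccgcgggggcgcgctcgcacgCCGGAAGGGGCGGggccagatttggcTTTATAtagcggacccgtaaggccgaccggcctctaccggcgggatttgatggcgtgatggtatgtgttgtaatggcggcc

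None of these 6 sequences held the CTCF core motif. RPL3, which encodes a protein of the large ribosomal subunit, held CCGGAAG, a core that ETS-family factors such as GABPA can bind, directly beside GGGCGG, a GC box that SP1 can bind, together with TGACGTCA and TATAAA. HAUS6, which encodes a subunit of the augmin complex of the mitotic spindle, held 2 matches to CCGGAAG and 1 to GGGCGG. COA5, whose start faces that of UNC50 on the other strand, held CCGGAAG once on each strand and GGGCGG once, with a GC content of 74.3%. LOH12CR2 held 1 CCGGAAG and 4 GGGCGG matches. MAU2, which encodes the partner of NIPBL in loading cohesin, held 1 GGGCGG. The promoter of RYBP, a Polycomb-associated gene, held no searched motif, and BORIS sat 240 bp upstream of its start, near the far end of the run.

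At the EV-only peaks, CTCF was weak in the cells without BORIS. Each of the 203 peaks overlapped exactly 1 CTCF peak of EV cells. The authors' score of that CTCF peak had a median of 65, against 700 over all 43162 CTCF peaks of EV cells and 1339 at the 14545 BORIS peaks with CTCF called in both populations. Scores have no stated unit and were compared within a list alone. By rank within the EV list, the median EV-only site stood at percentile 5.44, and 152 of the 203 (74.9%) fell in the lowest decile and 191 in the lowest 2 deciles. With the lowest decile of the EV list left out, the rule gave 51 peaks. The CTCF peaks were also narrow, with a median width of 191 bp against 443 bp where CTCF was called in both populations.

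BORIS itself was not weak there to the same degree. BORIS scores ran from 23 to 1972 with a median of 223, percentile 43.6 of the BORIS list, whose median was 254. Of the 203 peaks, 87 stood above the list median and 7 in its highest decile, while 17 stood in its lowest decile. The median score was 330 where CTCF was called in both populations, 242 where it was called in BORIS cells alone and 183 where it was called in neither. EV-only peaks were wider than peaks with CTCF in both, with medians of 409 and 330 bp, and narrower than the 467 bp of peaks without CTCF.

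**Figure D1:**
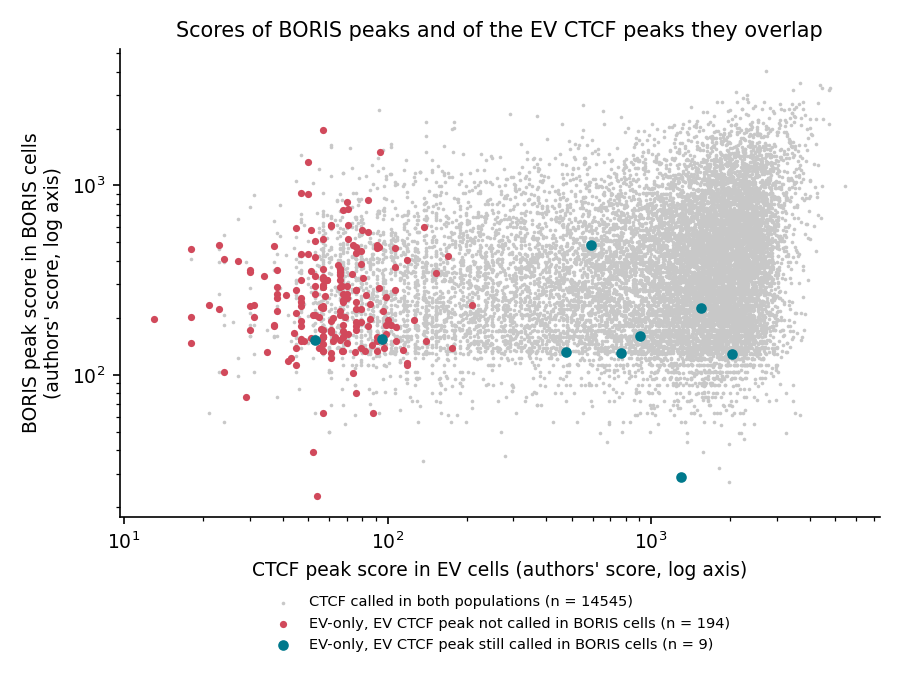
Each point is a BORIS peak, placed by the score of the EV CTCF peak it overlaps (horizontal, log axis) and its own BORIS score (vertical, log axis), for peaks with CTCF called in both populations and for EV-only peaks. The 194 EV-only peaks whose CTCF peak was not called in BORIS cells lie at EV scores of 13 to 209, at BORIS scores of 23 to 1972.

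CTCF and BORIS were centred close together at these sites, which follows in part from the rule, since it asked that their peaks overlap. The distances are therefore given as a description. The position that the lists give inside each peak differed by a median of 33 bp between the EV CTCF peak and the BORIS peak (quartiles 16 and 70), and by 16 bp where CTCF was called in both populations. It lay within 100 bp at 81.8% of EV-only peaks and at 95.04% of the latter. When the latter were restricted to EV CTCF peaks of the lowest decile, their median was 34 bp, and that of EV-only peaks of the same decile 38 bp. At 156 of the 203 sites (76.8%) the whole EV CTCF peak lay inside the BORIS peak.

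The name "lost" covers a change of call and not a measured loss of signal, and it held in full at 194 sites (95.6%, 95% Wilson interval 91.8 to 97.7), where the EV CTCF peak overlapped no CTCF peak of BORIS cells at all. At the other 9, the EV CTCF peak was still called in BORIS cells, but the called interval stopped 12 to 101 bp short of the BORIS peak. These 9 included the strong CTCF peaks of the set, with EV scores of 53 to 2027 and a median of 772. They included peaks beside PDK2, a kinase that inhibits pyruvate dehydrogenase, and B2M, the light chain of class I HLA molecules, within the spans of TYW3 and CRYZ, NAA50, B3GALNT2 and TBCE, CENPN and CMC2, and ROR1, and nearest to BCL9L. The BORIS peak at B2M (chr15:45003284-45004079, hg19) overlapped an EV CTCF peak of score 772 by 151 bp, and the nearest CTCF peak of BORIS cells was 12 bp away. At PDK2 (chr17:48171229-48171435) the overlap was 74 bp, the EV score 2027 and the gap 82 bp. Without these 9 peaks, the highest EV percentile in the set was 27.7.

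A few base pairs separated the cases on either side of the rule's limit. Just inside it, the gap to a CTCF peak of BORIS cells was 12 bp at B2M, 13 bp at CENPN and CMC2, 51 bp at B3GALNT2 and TBCE and 52 bp at ROR1. Just outside it, BORIS peaks shared 15 bp with such a CTCF peak at FMNL3, 29 bp at DGKH, 38 bp at OPA1, 41 bp near C17orf51 and 57 bp at LOC283050. Over all EV-only peaks the gap ran from 12 to 208838 bp with a median of 9758 bp. A CTCF peak of BORIS cells lay within 1 kb of 50 of them (24.6%, 19.2 to 31.0) and more than 5 kb away from 125. The most distant was at RYBP.

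The EV-only peak with the highest BORIS score (1972, percentile 99.5) lay at chr22:20104476-20105069 (hg19). It covered both the upper end of a span that the table gives to TRMT2A, DGCR8 and MIR1306 together and the lower end of RANBP1. The EV CTCF peak there had a score of 57, percentile 3.60. The next in rank, with a BORIS score of 1503 and an EV CTCF score of 94, lay at chr1:217804092-217804676 at the start of GPATCH2. After it, the peak at chr16:30816749-30817269 with scores of 1324 and 50, lay 18486 bp from the nearest gene end of the table, that of ZNF629. XRN2, which encodes a nuclear exonuclease that acts in transcription termination, had its start in a peak of BORIS score 918 (chr20:21283370-21284898). The peak at the start of PTPRG, a receptor phosphatase gene (chr3:61546217-61548249), was 2033 bp wide with a BORIS score of 902. The others of the 10 highest, with BORIS scores of 621 to 841, included peaks at AZI2, POM121 and MAU2, 1 inside KIAA0556 and 1 at chr6:32937692-32938337. In none of the 10 did the EV CTCF score exceed 94.

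To see how often a CTCF call was lost with and without BORIS, the CTCF peaks of EV cells were split by whether a BORIS peak overlapped them. The calls are those the selection used, and the presence of BORIS was known in BORIS cells alone. The shares are therefore given as a description without a test. At like EV score, the share not called was lower under BORIS. In the lowest decile of the EV list, 177 of 767 CTCF peaks with BORIS (23.1%) had no CTCF peak in BORIS cells, against 1498 of 3684 without BORIS (40.7%). In decile 2 the shares were 5.06% and 18.2%, and in decile 3 0.567% and 3.93%. In decile 4, 0 of 1043 and 19 of 3302 were not called, and in the deciles above it 0 in either group. Over the whole list, 222 of 14865 peaks with BORIS (1.49%) and 2268 of 28297 without it (8.01%) were not called in BORIS cells. Of those 222, 194 lay under an EV-only peak, and the other 28 lay under BORIS peaks that met a CTCF peak of BORIS cells elsewhere along their width.

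**Figure D2:**
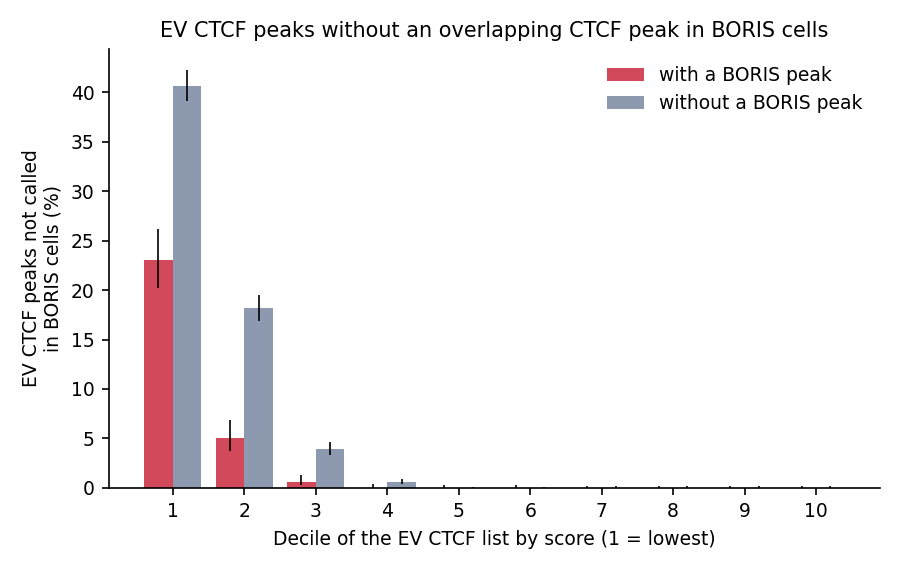
Bars give the percentage of EV CTCF peaks that overlap no CTCF peak of BORIS cells, by decile of the EV list by score, with and without an overlapping BORIS peak, and lines are 95% Wilson intervals for counting error. Nearly all lost calls fall in the lowest 3 deciles. In each of these the share is lower with BORIS, as in the lowest decile at 23.1% and 40.7%. The selection used the same calls, so this is a description and not a test.

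Position relative to genes was not used by the rule. The centre of 83 EV-only peaks (40.9%, 34.4 to 47.8) lay within 1 kb of an end of a gene span, against 22.8% of the BORIS peaks with CTCF called in both populations. The difference was 18.1 percentage points (95% Newcombe interval 11.5 to 25.01). Peaks with CTCF called in BORIS cells alone and in neither population were nearer to genes still, at 52.3% and 57.9%, and EV-only peaks differed from them by -11.4 points (-18.6 to -3.83) and -17.0 points (-23.7 to -10.1). The difference from peaks with CTCF in both did not hold at like EV score. When those were weighted to the EV-score deciles of the EV-only peaks, 46.5% lay at a gene end and the difference was -5.64 points (-12.9 to 1.94). Within the lowest decile the shares were 42.8% of 152 EV-only peaks and 49.4% of 543 peaks with CTCF in both, a difference of -6.59 points (-15.3 to 2.39). In those 543 the CTCF peak of BORIS cells was weak as well, at a median percentile of 15.6 in its own list.

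**Figure D3:**
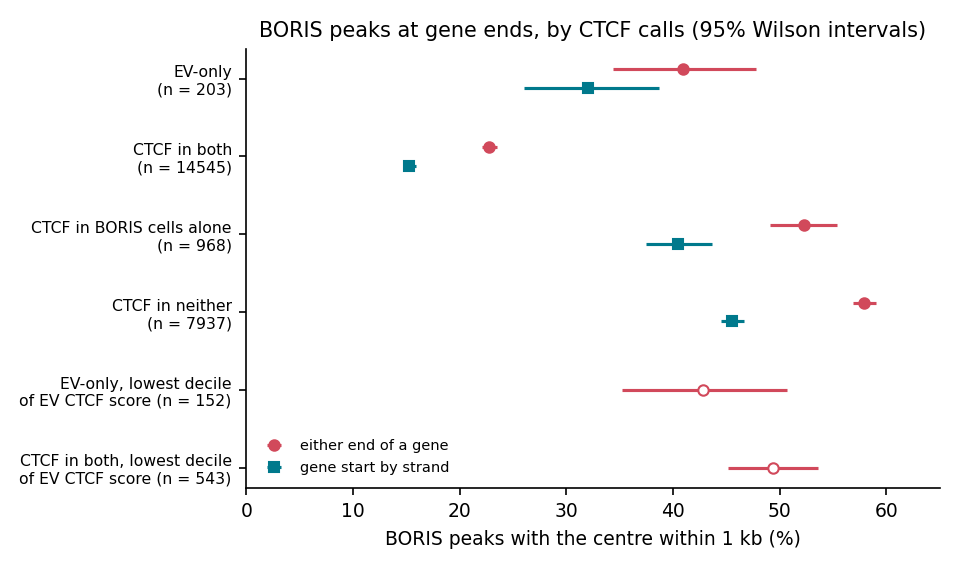
Points give the percentage of BORIS peaks whose centre lies within 1 kb of any end of a gene span (circles) or of a gene start by RefSeq strand (squares), by the populations in which CTCF was called, with 95% Wilson intervals. EV-only peaks at 40.9% lie between peaks with CTCF in both (22.8%) and in neither (57.9%), and the open circles show that the intervals overlap once EV CTCF peaks of the lowest decile are compared (42.8% and 49.4%).

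The lost CTCF peaks beneath BORIS lay in other places than those lost without BORIS. Of the 194 EV CTCF peaks that were not called in BORIS cells and lay under an EV-only peak, 77 (39.7%, 33.1 to 46.7) had their centre within 1 kb of a gene end. Of the 2268 lost without BORIS, 94 did (4.14%, 3.40 to 5.05), a difference of 35.5 points (28.9 to 42.6). Their scores were alike, with medians of 61.5 and 68. Over all EV CTCF peaks the share was 11.1%, and in the lowest decile 13.0%. Each class of BORIS peaks lay at gene ends at a higher rate than the EV CTCF list. In the lowest decile, BORIS peaks with CTCF called in both populations did so at 49.4%, by the centre of the BORIS peak. The difference thus also describes where BORIS peaks are and is not particular to lost calls.

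With the distance of 1 kb as the limit, EV-only peaks at gene ends were set beside the others. The 83 at gene ends were wider, with a median of 594 bp against 324.5 bp for the other 120, and had higher BORIS scores, with medians of 290 and 198. The EV CTCF scores had medians of 66 and 61.5. Of all 203, 28 lay 1 to 5 kb from the nearest gene end, 50 lay 5 to 50 kb away and 42 (20.7%) lay farther than that. The share beyond 50 kb was 18.5% where CTCF was called in both populations and 10.5% where it was called in neither. By centre, 135 (66.5%) lay inside a gene span, 67.5% of those at gene ends and 65.8% of the others.

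With strand taken from RefSeq by symbol, at least 65 EV-only peaks (32.0%) lay at a gene start, against 15.3% of peaks with CTCF in both, a difference of 16.7 points (10.7 to 23.5). Genes without a matched strand were not counted. A gene with both ends in reach, such as HIST1H3H, was counted by its nearer end alone. Both shares are therefore minimums. At 5 of the peaks, starts of 2 genes with matched, opposite strands were in reach. These were MAU2 with SUGP1, UNC50 with COA5, ZEB1 with ZEB1-AS1, GPATCH2 with SPATA17, and LOH12CR1 with LOH12CR2. TRMT2A and RANBP1, at the strongest BORIS peak, had no matched strand and could not be counted, so 5 is a minimum too. ZEB1 encodes a repressor of epithelial genes, and COA5 an assembly factor of cytochrome c oxidase.

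At these starts BORIS sat mostly downstream. The BORIS position was a median of 67 bp inside the gene (quartiles -37 and 408), and 21 of the 65 (32.3%) were upstream of the start. Where CTCF was called in both populations the median was -47 bp and 56.3% were upstream, and the difference in that share was -24.0 points (-34.3 to -11.7). No such difference was seen at like EV score. Of the 194 such peaks at starts whose EV CTCF peak was in the lowest decile, 33.5% were upstream, a difference of -1.20 points (-13.4 to 12.4). Where CTCF was called in neither population 27.1% were upstream, with a median of 181 bp inside the gene.

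**Figure D4:**
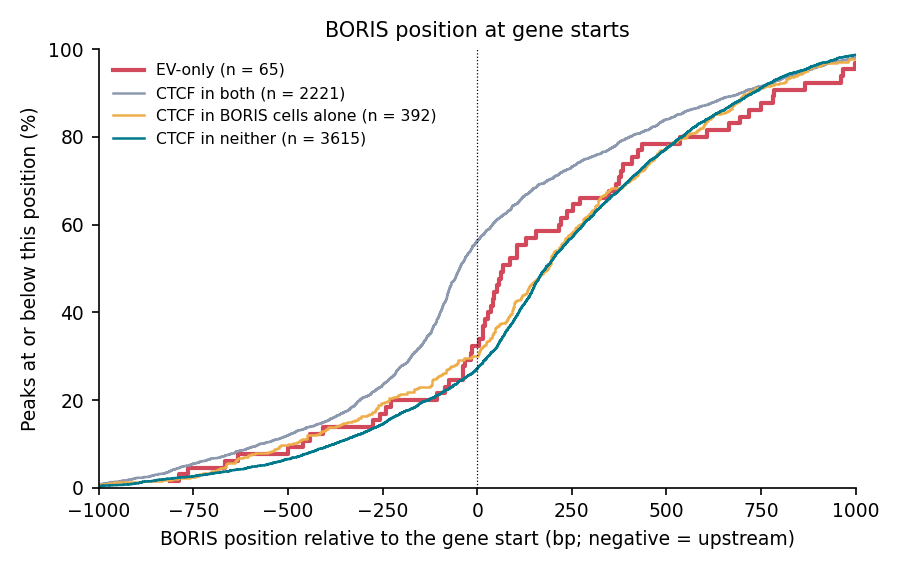
Lines give the cumulative percentage of BORIS peaks at gene starts by the position of BORIS relative to the start (bp, negative upstream, dotted line at the start), for each class of CTCF calls. At the start itself 32.3% of EV-only peaks have been counted, against 56.3% of peaks with CTCF in both and 27.1% of peaks with CTCF in neither.

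The CTCF core motif was searched in the promoters at these starts. The window of 250 bases before to 50 after the RefSeq start held the BORIS position of an EV-only peak at 21 genes, and at 18 of them it lay at the outermost RefSeq start of the gene. The other 3, those of PXK, SH3KBP1 and EYA4, lay 414 to 54449 bp inside the RefSeq gene and were left out, as were such windows in the groups compared. None of the 18 promoters held the CTCF core motif. Taken as 3 divided by the number of promoters, an approximate limit used for each count of 0 here, 0 of 18 allows a share of up to 16.7%. The upper Wilson bound was 17.6%. Both limits treat the 18 as separate, although the promoters of COA5 and UNC50 overlap, as do those of GPATCH2 and SPATA17. The motif was present in 146 of 781 promoters (18.7%) where BORIS sat with CTCF called in both populations, in 9 of 617 (1.46%) where CTCF was called in neither, and in 2.17% of the promoters of all genes of the expression table. Where CTCF was called in both but its EV peak was in the lowest decile, it was in 0 of 39, which allows up to 7.69%. At 9 of the 18 genes the table's span also had the RefSeq length within 50 bp, and at the other 9 the lengths differed by 118 to 18254 bp, so the RefSeq start may not be the one the table used. Among the 9 with equal lengths the motif was in 0, which allows up to 33.3%, against 21.6% of 319 promoters with CTCF in both. No match means only that these letters are not in this window.

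CCGGAAG was in 8 of the 18 promoters (44.4%), those of GPATCH2, ZNF585A, HAUS6, POM121, COA5, UNC50, LOH12CR2 and RPL3, of which COA5 and UNC50 share a single stretch of DNA. It was in 23.05% of the promoters with CTCF in both, in 28.7% with CTCF in neither and in 14.8% of all genes of the table. GGGCGG was in 12 (66.7%), against 69.01, 64.5 and 59.2% in the same 3 groups. It was in 8 of the 9 with equal lengths, against 71.2% of such promoters with CTCF in both and 65.7% with CTCF in neither. CCAAT was in 2 (11.1%), against 28.8, 34.8 and 37.2%. It was in 0 of the 9, against 27.0% and 35.5% of promoters with equal lengths and CTCF in both or in neither. The median GC content was 61.2%, against 66.7, 64.7 and 63.0%. In the 39 promoters with CTCF in both and an EV CTCF peak of the lowest decile, CCGGAAG was in 17.9%, GGGCGG in 82.1% and CCAAT in 23.1%. Their median GC content was 68.3%. With 18 promoters these shares are counts of a small set, and they were not tested.

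RNA of the genes beside EV-only peaks differed between the populations about as little as that of all genes. The 83 peaks at gene ends met 109 genes, of which 90 reached 1 FPKM in either library (82.6%, against 54.0% of all genes). The share was 72.7% at BORIS peaks with CTCF in both populations, 76.4% with CTCF in BORIS cells alone and 82.4% with CTCF in neither. Their log2 ratio of BORIS cells to EV cells, with a pseudocount of 1 FPKM that understates the change of low genes, had a median of 0.037 (order-statistic 95% interval -0.0043 to 0.066). The median was 0.039 at genes with BORIS and CTCF in both populations, 0.0050 with CTCF in neither, -0.024 at genes without a BORIS peak and -0.00024 over all genes. Of the 90, 54 (60.0%) stood above 0 and 36 below, against 60.1% above 0 at genes with CTCF in both and 49.9% of all genes. Within 0.5 of 0 lay 85 of the 90 (94.4%), the same share as over all genes (94.5%). The RNA kit of each library was not given, so a kit difference and the effect of BORIS cannot be told apart, and a lower level in bulk RNA does not tell fewer expressing cells from less RNA per cell.

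By a rule of size, a log2 ratio of at least 1, 1 of the 90 genes was higher in BORIS cells, beside 1.42% of all 12363 genes with 1 FPKM. That gene was MIR1306, a microRNA within the DGCR8 span, which is listed at 0 in EV cells and at 9.77 FPKM in BORIS cells, and FPKM values of such short genes can rest on few reads. No gene was lower by the rule, beside 0.922% of all genes. Of the 90 genes, 2 carried a mark as higher in the authors' deposited table, beside 5.46% of all genes, and 1 as lower, beside 6.44%. These shares are near or below the background.

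The 2 genes that the authors' deposited table marked as higher were PPM1J and ASAP3. PPM1J, a protein phosphatase gene, stood at 1.56 FPKM with the empty vector and 3.31 FPKM with BORIS, a log2 ratio of 0.75, with a q-value of 0.000817 in the authors' deposited table. ASAP3, which encodes a GTPase-activating protein for ARF proteins, stood at 4.61 and 7.03 FPKM, a log2 ratio of 0.52, with the same q-value in the authors' deposited table. BORIS sat 128 bp and CTCF 109 bp inside the ASAP3 gene in an EV-only peak with scores of 134 for BORIS and 57 for CTCF. ERBB4, a receptor tyrosine kinase of the EGFR family, was marked as lower, at 2.14 and 1.64 FPKM, a log2 ratio of -0.25, with a q-value of 0.00154 in the authors' deposited table. Its peak had a BORIS score of 441, and the BORIS position within the peak was 695 bp inside the gene. The sodium channel gene SCN9A, named after its values were seen, stood below the minimum at 0.569 and 0.909 FPKM and was marked in the authors' deposited table as well.

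**Figure D5:**
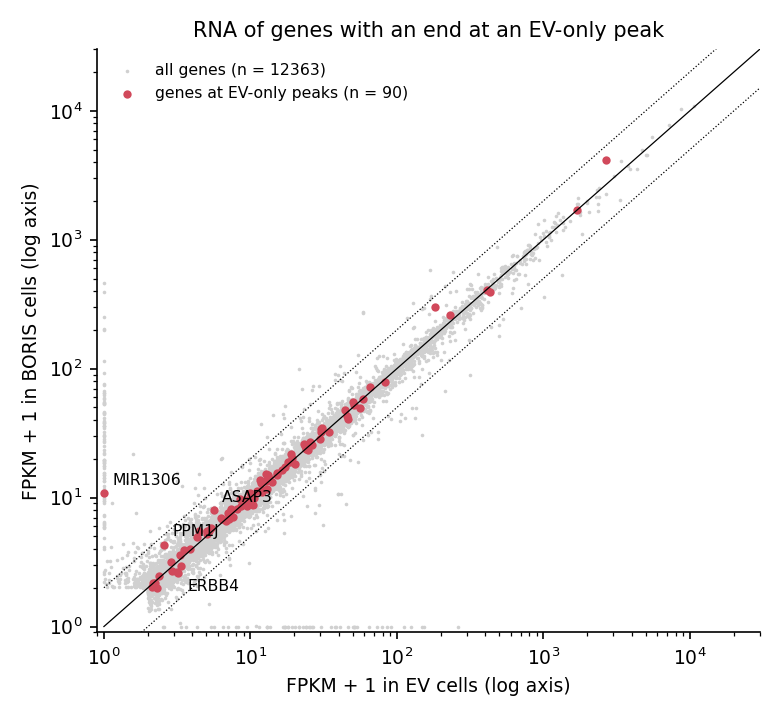
Each point is a gene with at least 1 FPKM in either library, placed by its FPKM + 1 in EV cells and in BORIS cells (log axes), with genes at EV-only peaks in red, a solid line at equal levels and dotted lines at a log2 ratio of 1 in either direction. Of the 90 red points 85 (94.4%) lie within 0.5 log2 units of the solid line, as do 94.5% of all genes, and MIR1306, at 0 FPKM in EV cells and 9.77 in BORIS cells, is the 1 beyond a dotted line.

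The named genes with the highest EV levels at EV-only peaks, chosen outside the MIR, SNORD, SNORA and RNU families, kept nearly the same level. RNU86 and SNORD83A, highly listed genes of those families, differed more and are given at the end. B2M stood at 1697 and 1711 FPKM, RPL3 at 409 and 408 FPKM, and the histone gene HIST1H3H at 434 and 394 FPKM. UBE2Z, a ubiquitin-conjugating enzyme gene, stood at 81.7 and 77.9 FPKM and RANBP1, a regulator of the RAN cycle, at 64.3 and 70.7 FPKM. RTN3, of the endoplasmic reticulum, was at 57.7 and 57.3 FPKM, BCL2L1, an inhibitor of apoptosis, at 54.6 and 48.9 FPKM, and SUMF2 at 49.9 and 50.9 FPKM. The log2 ratios of these 8 lay between -0.16 and 0.13.

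Below 0, TRMT2A at the strongest BORIS peak stood at 9.47 FPKM with the empty vector and 7.69 FPKM with BORIS, a ratio of -0.27. The lowest of the 90, at -0.30, was that of LOC100144602, at 2.19 and 1.58 FPKM, a locus without an official symbol that was named after its values were seen. POM121 was at 1.31 and 0.978 FPKM, and since it has near-identical copies its reads may be split among them. The receptor gene EPHA5 stood at 2.36 and 1.93 FPKM, and ID1, an inhibitor of helix-loop-helix factors, at 45.2 and 39.7 FPKM. RBCK1, a subunit of the linear ubiquitin ligase, was at 19.1 and 17.2 FPKM, STRBP at 8.44 and 7.58 FPKM, and SOX9, a transcription factor of progenitor cells, at 11.9 and 10.8 FPKM. PPP1R21 and the small Cajal body RNA SCARNA8, which shares its span with HAUS6, had ratios of -0.11 and -0.10. The authors' deposited table marked none of the genes in this paragraph.

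Above 0, APOBEC3F, a cytidine deaminase that restricts retroviruses, stood at 3.43 FPKM with the empty vector and 4.53 FPKM with BORIS, a log2 ratio of 0.32. B3GALNT2 was at 10.7 and 12.8 FPKM and TBCE, a tubulin chaperone gene that shares its span, at 30.0 and 33.7 FPKM, at a peak whose EV CTCF peak was still called in BORIS cells. PXK stood at 11.9 and 14.2 FPKM, LHFPL2 at 17.8 and 20.8 FPKM, L3MBTL4 at 3.29 and 3.97 FPKM and WDR89 at 7.49 and 8.77 FPKM. The adhesion receptor gene GPR125 was at 12.1 and 13.9 FPKM, MOV10, an RNA helicase, at 29.2 and 32.8 FPKM, and SH3KBP1 at 22.2 and 24.9 FPKM. The ratios of these 10 lay between 0.16 and 0.32, and the authors' deposited table marked none of them.

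Of 25 genes that act at CTCF sites, among them the cohesin subunits and their loaders and release factors, all were found in the table and 22 reached 1 FPKM. By the rule of size 1 was higher, CTCFL itself, beside 1.42% of all genes, and 0 were lower, beside 0.922%. The median log2 ratio was 0.024. Of the 22, 2 carried a mark as higher in the authors' deposited table, beside 5.46% of all genes, the cohesin subunit STAG1 at 16.3 and 19.4 FPKM and the acetyltransferase ESCO1 at 7.27 and 8.90 FPKM. CTCFL carried no mark, with a q-value of 0.484 in the authors' deposited table. The mark can thus miss a large difference, which limits every count of marks given here. MAU2 was the 1 gene of this list with an EV-only peak at its start, where BORIS sat 37 bp and CTCF 55 bp upstream, and it stood at 9.62 FPKM with the empty vector and 9.0 FPKM with BORIS.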

How the data were processed

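CTCF and BORIS ChIP-seq (3 peak lists) and RNA-seq (2 libraries) were used, with 1 library per group; the EV input was not analysed here. The submitters' processing notes name Cufflinks 2.0.0, Bowtie and TopHat2, with no role stated, and the build hg19; the peak caller and its threshold are not given in the sources used here. The deposited peak lists hold a score without a unit and a position per peak. The deposited expression table holds FPKM values and the authors' p-values and q-values, and read depth is unknown. Per the labels' protocols either of 2 RNA kits was used; a kit difference and the effect of BORIS cannot be told apart.

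Peaks were joined by overlap, and to either end of a gene span of the expression table by centre. Strand and promoter sequence came from RefSeq by symbol: 15417 of 23278 table rows and 76 of the 109 at EV-only peaks matched, and 30 of the 109 share a span. Of the table's per-sample columns 0 were left unused. Promoter windows more than 50 bp from the outermost RefSeq start of their gene were left out. Shares carry Wilson intervals and differences Newcombe intervals, except the limits given for a motif count of 0, which are an approximation. The overlap, interval and join functions were tested on simulated data (Python 3.11.15, scipy 1.17.1). No test was run, as no group has a replicate. Named genes at EV-only peaks were 12 at each extreme of the ratio, the 8 with the highest EV level and every one marked by the authors, with a symbol in RefSeq and outside the MIR, SNORD, SNORA and RNU families, with CTCF and CTCFL. Named peaks were the 10 highest by BORIS score, the 8 highest by EV CTCF score, those nearest to the rule's limit and those at named genes; 1 of these peaks is not reported here. The peaks and lists were chosen with earlier results of these data known. Alternatives varied the overlap, distances, pseudocount, filter, scaling and ranking.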

Additional observations from a re-analysis of the deposited data

How the results depend on the processing

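The difference in gene-end share from peaks with CTCF in both populations turned to -5.64 points when these were weighted to the EV-score deciles of the EV-only peaks. The cause of this was not tested. It kept its direction, with an interval above 0, under the other 6 alternatives. Of these, removing the 9 peaks whose CTCF peak was still called, weighting by BORIS score (22.5 points) and counting gene starts alone were chosen after seeing the data. The number of EV-only peaks fell from 203 to 51 without the lowest decile of the EV CTCF list and stayed between 171 and 276 otherwise. The share at gene ends was 28.6% within 500 bp and 54.7% within 5 kb. The share with the EV CTCF peak gone was 88.2% when none within 500 bp was allowed. A CTCF peak of BORIS cells lay within 500 bp of 15.8% and within 5 kb of 38.4%. These values move by construction with the distance. The count of higher genes rose from 1 to 2 with a pseudocount of 0.1, which added PPM1J, and to 5 at a log2 ratio of 0.5, and that of lower genes was 0 in every setting. By width in place of score, the median percentile was 9.28 for the EV CTCF peaks and 58.7 for the BORIS peaks, and the cause was not tested. The median log2 ratio ranged from 0.016 to 0.040 over its 7 alternatives. Leaving out promoter windows away from the RefSeq start was chosen after seeing the data; with all 21 windows CCGGAAG was in 38.1% and the CTCF core motif in 0. No paired analysis was possible because each group held 1 library. Depth limits which weak CTCF peaks were called, and it is unknown here.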

Other observations

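EV-only peaks were spread over the genome. Their share of the BORIS peaks with CTCF in EV cells was 1.38% (1.201 to 1.58) overall. The chromosomes with the highest and lowest share were picked after the values were seen. These were chromosome 7 at 2.45% (1.55 to 3.84), with 18 peaks, and chromosome X at 0.615% (0.169 to 2.22), with 2. Their departure from the share over all chromosomes was not tested. Only 2 of the peaks had the next within 10 kb. The RPL3 peak lay at a span that also holds small nucleolar RNA genes, of which RNU86 was listed at 2661 FPKM with the empty vector and 4182 FPKM with BORIS and SNORD83A at 180.3 and 301 FPKM, while RPL3 itself stood at 409 and 408 FPKM. These were named after their values were seen, and the authors' deposited table marked neither.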
